A study of Homo sapiens with 4 samples.

Results

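The MAGEA genes of the X chromosome were described in LASCPC-01 cells, a human neuroendocrine prostate cancer line. It is known to derive from prostate epithelial cells into which N-Myc and an active form of AKT1 were introduced, so both groups carry these oncogenes. The 8 members, MAGEA1, MAGEA3, MAGEA4, MAGEA6, MAGEA8, MAGEA10, MAGEA11 and MAGEA12, were found by symbol in a table of 16376 genes, and 7 of them have a row. The level of MAGEA8 was not analysed here. Polyadenylated RNA was sequenced from 2 libraries of cells treated with ketotifen, an H1 antihistamine, and from 2 libraries of cells treated with PBS, all at day 3, and the labels give the genotype of both groups as WT. No dose is stated. The libraries of a group are called A and B after the table's columns. The labels do not tell whether they were separate cultures, so errors and p-values measure only how far these libraries differ, which can be technical. The family was chosen by its FPKM values and its difference between ketotifen and PBS in these same libraries, so both are given for the members as a description, with no test. In such bulk RNA, a change in the number of expressing cells and in the RNA of each cell cannot be told apart.

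Levels are in FPKM, fragment counts scaled to gene length and library size, so that levels can be compared between genes. The library totals recovered from the values ran from 32873603 to 36703851 fragments. The libraries of a pair correlated over log2 values of 10586 genes (r = 0.998 for ketotifen and 0.996 for PBS, across genes). PBS library A was as close to ketotifen library A as to PBS library B (r = 0.996 for both), and PBS library B was further from the ketotifen libraries (r = 0.994 with both). The mean chi-square per gene, which counting error alone would hold near 1, was 28.1 and 22.8 for PBS library B against ketotifen libraries A and B, and 10.5 against PBS library A. Of 13 neuroendocrine markers 6 had a mean of at least 1 FPKM, while SYP, with 31 to 50 reads, and CHGA, with 0 to 7 reads, were near absent. A list of 11 male germ line markers had 6 rows, of which 5 lay under 1 FPKM and 1 was listed at 0 in all 4 libraries. Its summed level was 1.15 and 1.19 FPKM with ketotifen, against 1.53 and 1.245 FPKM with PBS, most of it TEX15. The fibroblast, leukocyte and endothelial lists had 5, 4 and 4 rows, with summed levels of 0.126 to 3.99 FPKM in every library.

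MAGEA genes encode cancer-testis antigens. They are normally transcribed in male germ cells and in few other tissues, are silenced elsewhere by DNA methylation of their promoters, and are switched on again in many tumours. Their proteins share the MAGE homology domain, through which they bind ubiquitin ligases. Peptides derived from these proteins are shown to T cells on MHC class I molecules. MAGEA1 was the first human tumour antigen found through T cell recognition. MAGEA3 and MAGEA6 bind the ligase TRIM28, MAGEA4 binds the ligase RAD18, and MAGEA11 binds the ligase HUWE1.

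The family is built from near copies, and the sequences show how much of it a read can tell apart. In GENCODE v29 the coding sequences of MAGEA3 and MAGEA6 both span 942 bases and differ at 18 of them, with a longest identical run of 308 bases. The 60-base coding window in which they differ most holds 4 differences, shown here in capitals, 5′ to 3′ on the coding strand, at chrX:152701405-152701464 (plus strand, MAGEA3) and chrX:152767019-152767078 (minus strand, MAGEA6) of GRCh38.
MAGEA3: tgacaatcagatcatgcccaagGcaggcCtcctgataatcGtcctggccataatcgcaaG
MAGEA6: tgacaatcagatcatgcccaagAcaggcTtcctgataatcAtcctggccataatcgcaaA
Most of the window is the same in both genes. A read can be given to one of the genes only where it, or its mate, covers a base that differs.

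The other members stood further apart. MAGEA12 shared 92.1% of aligned coding positions with MAGEA3, MAGEA4 shared 82.3% and MAGEA1 80.4%. MAGEA8 shared 77.5%, MAGEA10 61.3% and MAGEA11 55.7%. Gap positions count as not identical here. The coding sequences of MAGEA10 and MAGEA11 are longer, at 1107 and 1287 bases, and had 165 and 347 gap positions against MAGEA3. MAGEA2 and MAGEA2B, a pair outside the member list, were identical to each other in all coding positions and 91.5% identical to MAGEA3.

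**Figure D1:**
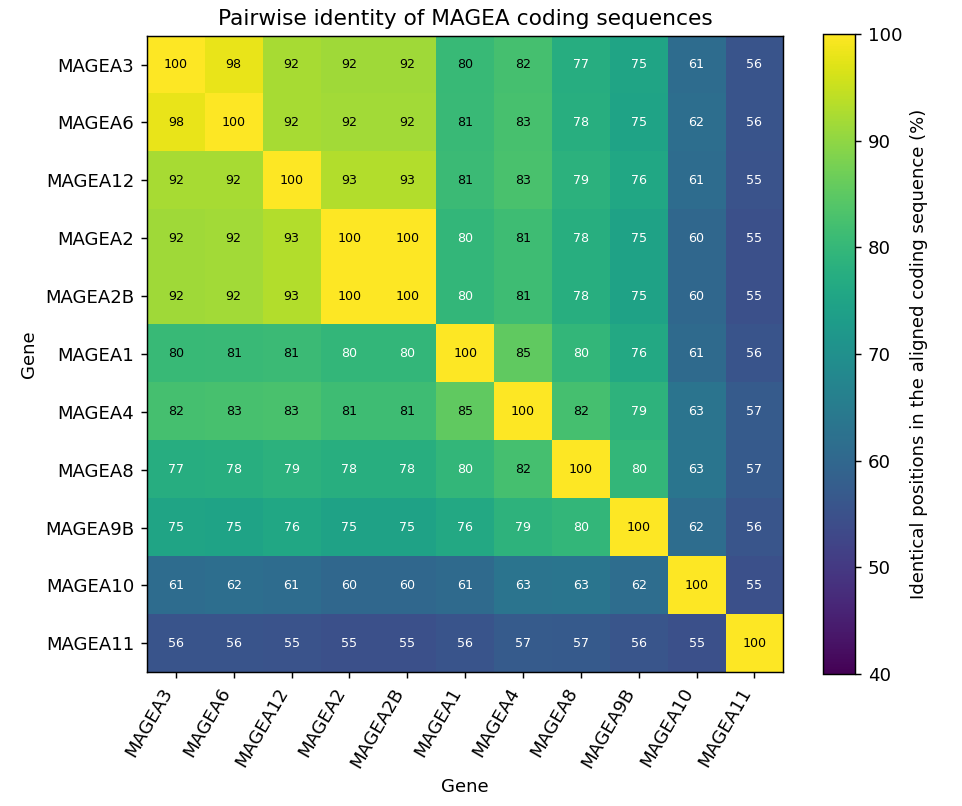
Identity between the coding sequences of 11 MAGEA genes, as the percentage of aligned positions, gaps included, that are identical; rows and columns are genes and colour gives the percentage. MAGEA3, MAGEA6, MAGEA12, MAGEA2 and MAGEA2B form a block above 91%. MAGEA10 and MAGEA11 have lower percentages with every other gene, in part because their longer coding sequences add gap positions.

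Every window of 150 bases, the read length the labels give, was taken from 1 transcript per gene and looked for in the transcripts of all other GENCODE v29 genes on both strands. In MAGEA1, MAGEA4, MAGEA8, MAGEA11 and MAGEA12, 100% of the windows occurred in no other gene. In MAGEA3 and in MAGEA6 it was 72.1%, the remaining 27.9% being shared between them. MAGEA10 had 87.7%, the rest being shared with the readthrough gene MAGEA10-MAGEA5. MAGEA2 had 2.24% and MAGEA2B 0%. Whether the authors' counting dropped, split or doubled reads that fit several genes is not stated in any source at hand. Single values of MAGEA3, MAGEA6, MAGEA2 and MAGEA2B are therefore uncertain.

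**Figure D2:**
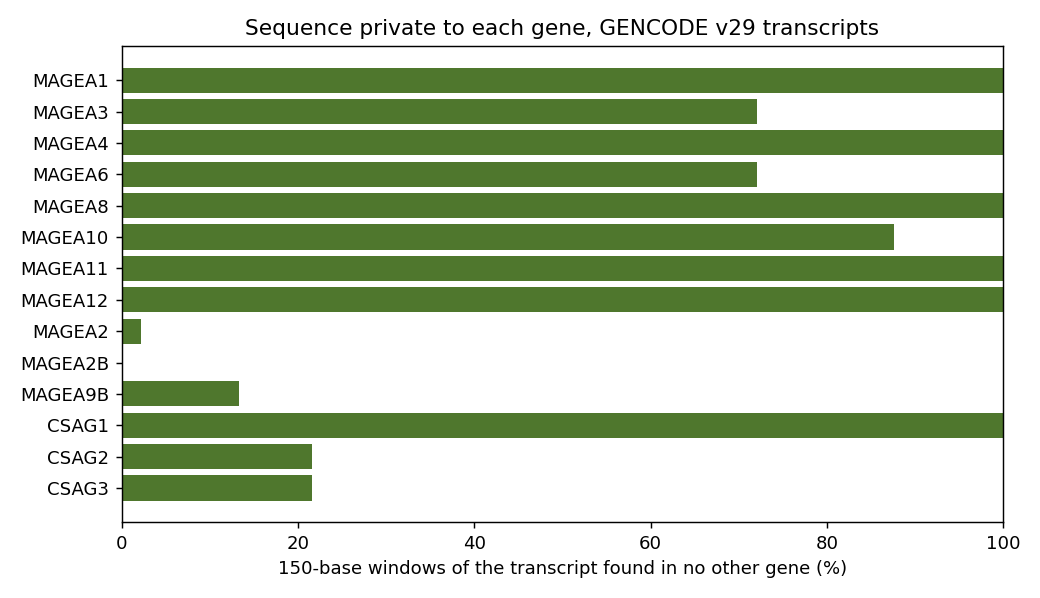
Share of 150-base transcript windows that occur in no other GENCODE v29 gene, 1 bar per gene. MAGEA3 and MAGEA6 reach 72.1% each, MAGEA2 and MAGEA2B lie at 2.24% and 0%, and CSAG2 and CSAG3 at 21.6% each.

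Promoters of the family are shown to set members of high and low level side by side. RefSeq promoter windows of 300 bases (GRCh38.p14, 250 before and 50 after the start) were at hand for 6 of the 8 members. The windows of MAGEA3 and MAGEA6 were identical in all 300 bases, although the genes lie on opposite strands. Windows of MAGEA2 and MAGEA2B were identical to each other as well. The listed levels of MAGEA2 and MAGEA2B were low, but hardly any of their transcript windows occur in no other gene, so these levels are uncertain. The window of MAGEA12 aligned to that of MAGEA3 with 69.0% identical positions, that of MAGEA11 with 49.7% and the first of MAGEA4 with 45.9%. Gap positions count as not identical here too. MAGEA12 had 27 mismatches and 78 gap positions, MAGEA11 103 and 64, and MAGEA4 53 and 150. Each window is placed by its own start, and such offsets add gaps, so these percentages do not rank the promoters by likeness. The 250 bases before the start are printed 5′ to 3′ on the gene's strand, all 4 of them plus: MAGEA3 at chrX:152698544-152698793, MAGEA12 at chrX:152733612-152733861, MAGEA4 at chrX:151912224-151912473 and MAGEA11 at chrX:149711810-149712059. Capitals mark GGATGTGA, the longest run that all 15 windows of 9 MAGEA genes hold on the gene's own strand.
MAGEA3: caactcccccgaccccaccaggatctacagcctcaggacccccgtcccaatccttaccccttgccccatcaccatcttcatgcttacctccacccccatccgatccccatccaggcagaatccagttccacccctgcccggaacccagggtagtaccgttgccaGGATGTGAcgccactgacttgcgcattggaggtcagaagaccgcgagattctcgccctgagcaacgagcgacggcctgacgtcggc
MAGEA12: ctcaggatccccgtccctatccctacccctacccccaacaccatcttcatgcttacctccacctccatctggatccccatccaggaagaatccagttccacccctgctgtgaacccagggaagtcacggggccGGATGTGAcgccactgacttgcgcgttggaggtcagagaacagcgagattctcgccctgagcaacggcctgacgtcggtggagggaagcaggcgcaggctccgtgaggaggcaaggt
MAGEA4: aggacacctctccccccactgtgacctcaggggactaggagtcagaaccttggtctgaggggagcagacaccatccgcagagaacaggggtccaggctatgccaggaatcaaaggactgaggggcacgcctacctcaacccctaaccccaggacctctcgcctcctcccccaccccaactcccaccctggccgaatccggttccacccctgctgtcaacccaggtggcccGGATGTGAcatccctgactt
MAGEA11: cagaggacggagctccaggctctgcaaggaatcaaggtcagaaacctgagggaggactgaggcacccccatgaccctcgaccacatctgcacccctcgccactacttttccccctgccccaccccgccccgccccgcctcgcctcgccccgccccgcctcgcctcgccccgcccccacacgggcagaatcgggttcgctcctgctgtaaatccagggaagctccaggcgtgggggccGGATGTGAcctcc
The run was found by comparing these windows for exact matches and not searched as a known site, and no other motif was searched. It was picked as present in every MAGEA window, so its presence in highly and barely expressed members was set in advance. On either strand it occurs in 406 of 35116 RefSeq promoter windows, or 1.16%. CG dinucleotides, where promoter methylation can fall, numbered 19 in the windows of MAGEA3 and MAGEA6, 9 and 15 in those of MAGEA12, 10 to 15 in those of MAGEA4 and 21 in that of MAGEA11, against a median of 14 over all windows. Methylation itself was not measured.

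The levels of the members fell into 4 steps, which every library shared. MAGEA3 and MAGEA6 were the highest, MAGEA12 and MAGEA1 came next, MAGEA4 lay about an order of magnitude lower, and MAGEA11 and MAGEA10 were barely detected. MAGEA3 averaged 40.4 FPKM over the 4 libraries, which placed it at the 88.0 to 91.1 percentile of all rows. MAGEA6 averaged 38.9, MAGEA12 27.3, MAGEA1 26.4 and MAGEA4 2.71 FPKM. MAGEA11 averaged 0.245 FPKM and MAGEA10 0.0193 FPKM. The ratio of MAGEA3 to MAGEA6 was 1.11 and 1.05 in the ketotifen libraries, against 0.952 and 1.03 in the PBS libraries. The ratio of MAGEA12 to MAGEA1 was 1.09 and 0.945 with ketotifen, against 1.12 and 0.980 with PBS. Both ratios lay on either side of 1, so neither pair of neighbours had a fixed order in FPKM. In reads, MAGEA3 exceeded MAGEA6 and MAGEA12 exceeded MAGEA1 in every library. The FPKM values imply gene lengths of 2574 bases for MAGEA3 and 1746 for MAGEA6, while the GENCODE transcripts used here have 1762 bases each, so the order of this pair rests on the lengths used. MAGEA6 was 1.34 to 1.51 times MAGEA12 in each of the 4 libraries, and MAGEA1 was 9.11 to 10.4 times MAGEA4. MAGEA3 made up 31.1% and 30.1% of the family's summed level in the ketotifen libraries, against 27.7% and 29.6% in the PBS libraries. MAGEA6 made up 28.0% and 28.7% with ketotifen, against 29.1% and 28.7% with PBS.

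The 4 highest members lie close together near the end of the long arm of the X chromosome (GENCODE v29, GRCh38). MAGEA3 spans 152698752 to 152702347 on the plus strand, MAGEA12 152733779 to 152737669 on the plus strand and MAGEA6 152766136 to 152769747 on the minus strand, so that the 3 genes fit in 71.0 kb. MAGEA1 follows 480.5 kb beyond the MAGEA3 start, at 153179285 to 153183880. On the other side, MAGEA10 starts 565.4 kb before MAGEA3, at 152133310 to 152138578, MAGEA4 starts 786.2 kb before it, at 151912509 to 151925170, and MAGEA11 starts 3010.5 kb before it, at 149688228 to 149717266. MAGEA8 lies at 149881141 to 149885835.

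The genes between them did not share one level. GABRQ, a GABA receptor subunit gene 60.6 kb before MAGEA3, averaged 0.0128 FPKM, and PNMA6A, 373.7 kb after it, averaged 0.0288 FPKM. The housekeeping neighbour NSDHL, an enzyme of cholesterol synthesis 132.2 kb after it, averaged 22.1 FPKM. Within the 71.0 kb, CSAG1, a cancer-testis gene that faces MAGEA12 head to head with 43 bases between the gene bodies, had 37.3 and 36.1 FPKM in the ketotifen libraries, against 36.1 and 39.4 FPKM in the PBS libraries. The RefSeq promoter windows of CSAG1 and MAGEA12 overlap by 240 bases on opposite strands. CSAG1 was 1.23 and 1.28 times the level of MAGEA12 with ketotifen, against 1.29 and 1.73 times with PBS. MAGEA2B and MAGEA2, which face CSAG2 and CSAG3 across 36 bases in the same way, averaged 0.613 and 0.914 FPKM. Both values are uncertain, since nearly all transcript windows of this pair occur in another gene.

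**Figure D3:**
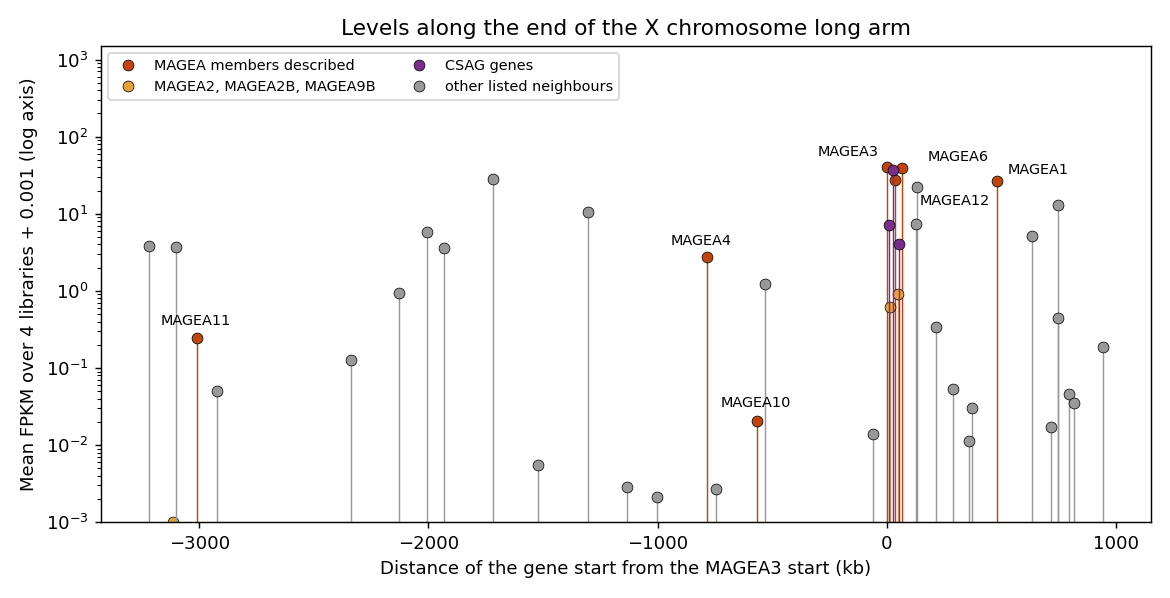
Mean FPKM over the 4 libraries plus 0.001, on a log axis, against the distance of the gene start from the MAGEA3 start in kb, for MAGEA and CSAG genes and listed neighbours with a row. MAGEA3, MAGEA6, MAGEA12 and MAGEA1 stand between 26.4 and 40.4 FPKM, while MAGEA10 and MAGEA11 stand at 0.0193 and 0.245 FPKM.

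With ketotifen, each of the 5 members above 1 FPKM was higher in both libraries than in either PBS library, with means 1.10 to 1.30 times those of PBS. Of all 10586 genes tested, 23.2% were higher without overlap in the same way. MAGEA3 had 46.8 and 44.5 FPKM in the ketotifen libraries, against 35.7 and 34.7 FPKM in the PBS libraries. The groups did not overlap, and the gap between them was wider than the spread within either. MAGEA3 averaged 45.6 ± 1.57 FPKM with ketotifen and 35.2 ± 0.671 FPKM with PBS (SD, n = 2 each), a difference of 0.37 ± 0.05 on the log2(FPKM + 1) scale (limma's SE).

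MAGEA6 had 42.0 and 42.4 FPKM in the ketotifen libraries, against 37.5 and 33.7 FPKM in the PBS libraries. Its ketotifen libraries were nearly equal, and its PBS libraries were spread apart, library B being the lowest. The means were 42.2 ± 0.245 FPKM with ketotifen and 35.6 ± 2.69 FPKM with PBS, a log2 difference of 0.24 ± 0.06. MAGEA3 and MAGEA6 share sequence, so their summed level is given as well. It too would be off if shared reads were dropped or doubled, and the gene lengths implied for the pair differ. The sum was 88.8 and 86.9 FPKM with ketotifen, against 73.2 and 68.4 FPKM with PBS, or 1.24 times the PBS mean.

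MAGEA12 had 30.4 and 28.1 FPKM in the ketotifen libraries, against 27.9 and 22.7 FPKM in the PBS libraries. Ketotifen library B and PBS library A were almost level, and the PBS libraries differed from each other more than the group means did. The means were 29.3 ± 1.62 FPKM with ketotifen and 25.3 ± 3.67 FPKM with PBS, a log2 difference of 0.21 ± 0.09. It was 0.35 when PBS library A was left out and 0.06 when PBS library B was, so its size rests on that library.

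MAGEA1 had 27.9 and 29.8 FPKM in the ketotifen libraries, against 24.9 and 23.2 FPKM in the PBS libraries. The groups did not overlap, and each group spanned less than the gap between the means. The means were 28.8 ± 1.33 FPKM with ketotifen and 24.1 ± 1.22 FPKM with PBS, a log2 difference of 0.25 ± 0.06. MAGEA1 shares no 150-base window with another gene, so its value does not rest on how copies were told apart.

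MAGEA4 had 2.82 and 2.86 FPKM in the ketotifen libraries, against 2.61 and 2.55 FPKM in the PBS libraries. The values rest on 285 and 266 reads with ketotifen, against 237 and 244 reads with PBS. The log2 difference of 0.10 ± 0.08 was little larger than its SE.

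The remaining members were too low to compare. MAGEA11 had 33 and 17 reads in the ketotifen libraries (0.292 and 0.164 FPKM), against 20 and 35 reads in the PBS libraries (0.198 and 0.327 FPKM). The groups overlapped, and the exact Poisson 95% intervals, which cover counting error only, ran from 9.90 to 27.2 reads for the lowest library and from 24.4 to 48.7 reads for the highest. MAGEA10 had 0 and 1 reads with ketotifen, against 6 and 0 reads with PBS, where 3 reads are worth 0.0298 to 0.0333 FPKM. No difference was detectable in either gene at this depth.

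**Figure D4:**
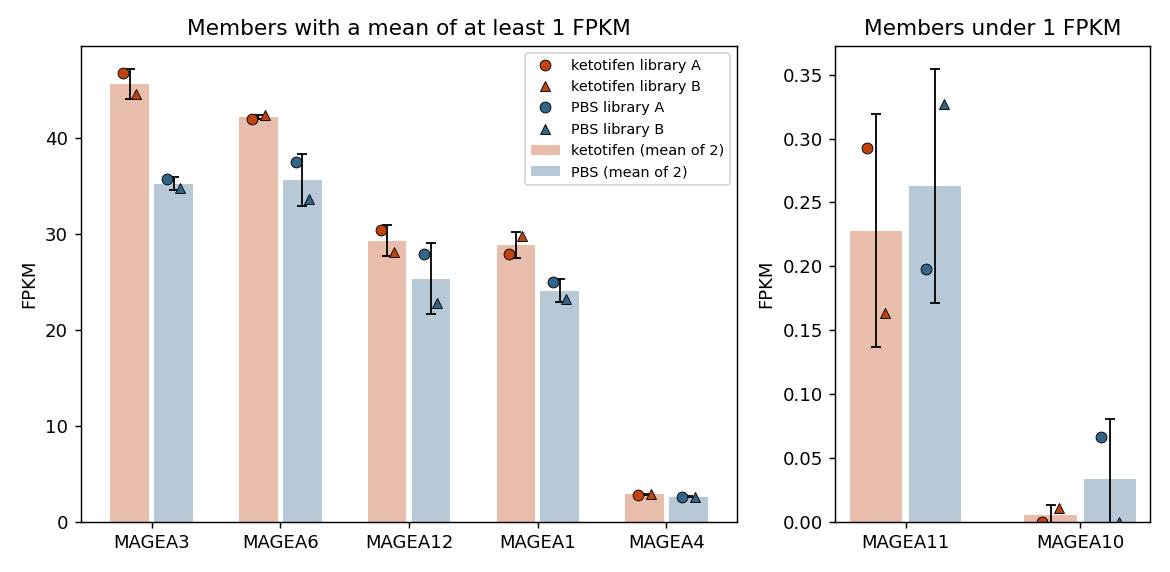
FPKM of the 7 members with a row, ketotifen left and PBS right for each gene; bars are means of 2 libraries, error bars are 1 SD, circles are library A and triangles library B. The 5 members above 1 FPKM lie higher in both ketotifen libraries than in both PBS libraries, and MAGEA11 and MAGEA10 overlap.

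Summed over the 7 members, the family had 150.2 and 147.8 FPKM in the ketotifen libraries, against 129 and 117 FPKM in the PBS libraries. The means were 149 ± 1.68 FPKM with ketotifen and 123 ± 8.25 FPKM with PBS, 1.21 times as high. The shares of the members in this sum moved little, with MAGEA12 at 20.3% and 19.0% with ketotifen, against 21.7% and 19.4% with PBS, and MAGEA1 at 18.6% and 20.1% with ketotifen, against 19.3% and 19.8% with PBS. The log2 ratio of the summed levels was 0.28. It was 0.35 when PBS library A was left out and 0.21 when PBS library B was. Values of cell type markers are given beside it. Of the 6 neuroendocrine markers tested 5 had a negative log2 difference, with a median of -0.15, and their list summed to 1033 and 1050 FPKM with ketotifen, against 1064 and 1058 FPKM with PBS. Limma called 0 of the 6 and voom called 3 lower, MYCN among them. MYCN, the gene of the introduced N-Myc, had 327 and 332 FPKM with ketotifen, against 370 and 387 FPKM with PBS. UCHL1, the only positive marker of the 6, had 487 and 490 FPKM with ketotifen, against 458 and 434 FPKM with PBS. The sum of the list rests mostly on MYCN and UCHL1, which differed in opposite directions. Both were named after their values were seen. The 4 luminal prostate markers tested were all positive, with a median of 0.09, and 0 were called by either tool; their list of 7 summed to 886 and 866 FPKM with ketotifen, against 839 and 786.0 FPKM with PBS. The part of these values in the family's difference was not tested.

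Across all genes, the 5 members past the filter of a mean of 1 FPKM had a median log2 difference of 0.24, beside -0.02 over the 10586 genes tested, of which 90% lay between -0.22 and 0.23. These values describe the contrast that the family was chosen by. The members also share sequence and a chromosome region and are not independent of each other.

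The genes whose profile over the 4 libraries lay nearest to that of MAGEA3 were COMMD4, POGLUT2 and NME3, with root mean square distances of 0.022, 0.023 and 0.027 on the centred log2(FPKM + 1) scale. COMMD4 had 35.9 and 34.5 FPKM with ketotifen, against 27.9 and 26.0 FPKM with PBS. With 4 libraries such likeness is common: 37 genes lay within 0.05 of MAGEA3, and MAGEA6, at 0.079, ranked 225 of 10585.

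Other MAGE genes were mostly listed at low levels. MAGEA2 had 0.672 and 0.704 FPKM in the ketotifen libraries, against 0.281 and 2.001 FPKM in the PBS libraries, and its twin MAGEA2B had 0.388 and 1.70 FPKM with ketotifen, against 0.173 and 0.191 FPKM with PBS. The high value fell in PBS library B for MAGEA2 and in ketotifen library B for MAGEA2B, but reads can hardly be assigned to one twin or the other. Their sum was 1.06 and 2.404 FPKM with ketotifen, against 0.454 and 2.19 FPKM with PBS. The part of shared sequence in these values was not tested. MAGEA9B was listed at 0 in all 4 libraries. Of the type I genes outside the A family, 3 had a row, MAGEB2, MAGEB17 and MAGEC1, and none had a mean of 1 FPKM.

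Of the type II MAGE genes, which are expressed widely in normal tissues, 10 of 12 had a row and 3 were tested. MAGEF1 was higher than any MAGEA member in every library. It had 62.0 and 60.6 FPKM in the ketotifen libraries, against 58.7 and 49.6 FPKM in the PBS libraries (log2 difference 0.18, limma adjusted p = 0.245). MAGED2 had 11.0 and 10.3 FPKM with ketotifen, against 10.4 and 10.6 FPKM with PBS. NSMCE3, a subunit of the SMC5/6 complex, had 6.24 and 5.97 FPKM with ketotifen, against 5.95 and 5.28 FPKM with PBS. None of the 3 passed by limma or by voom. Over all tested genes, limma called 0.123% (0.00945% higher and 0.113% lower), voom called 6.91% (3.35% higher and 3.56% lower), and 20.4% had an unadjusted limma p under 0.05.

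Other cancer-testis genes included some as high as the MAGEA genes. PRAME, an autosomal antigen gene, had 146 and 144 FPKM in the ketotifen libraries, against 144 and 145 FPKM in the PBS libraries, a log2 difference of 0.00 with a 95% interval of -0.11 to 0.12. Of 43 autosomal cancer-testis genes on the list 33 had a row and 15 were tested, with a median log2 difference of -0.01 and 0 called by limma or voom. PBK, a mitotic kinase, had 38.8 and 35.7 FPKM with ketotifen, against 36.0 and 33.8 FPKM with PBS. IMP3, which shares an alias with the intended IGF2BP3 and encodes a protein of the U3 nucleolar complex, had 95.6 and 109 FPKM with ketotifen, against 94.0 and 87.7 FPKM with PBS. It is not the intended gene but is counted among the 15. IGF2BP3, also on the list and named here because of the alias, had 16.9 and 16.4 FPKM with ketotifen, against 17.5 and 18.6 FPKM with PBS. CTCFL, an activator of cancer-testis promoters, had 4 reads in each ketotifen library, against 0 and 1 reads in the PBS libraries.

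Of 88 other X-linked cancer-testis genes 20 had a row, and the 3 that were tested were all CSAG genes from the MAGEA cluster. CSAG1 had a log2 difference of -0.04 with a 95% interval of -0.18 to 0.10. CSAG2 had 9.94 and 5.39 FPKM with ketotifen, against 5.75 and 7.72 FPKM with PBS, and CSAG3 had 3.02 and 4.11 FPKM with ketotifen, against 4.22 and 4.76 FPKM with PBS. The summed level of these near copies was 12.96 and 9.49 FPKM with ketotifen, against 9.97 and 12.5 FPKM with PBS. None of the 3 passed by either tool, and the difference between CSAG1 and MAGEA12 in their response was not tested. Of 37 listed Xq28 neighbours, a list that also holds the CSAG genes, 33 had a row and 16 were tested, with a median of -0.01 and 0 called by limma or voom. The 2 highest after CSAG1 were HMGB3, a chromatin protein, with 28.8 and 29.4 FPKM with ketotifen, against 26.6 and 28.1 FPKM with PBS, and NSDHL, with 21.9 and 23.99 FPKM with ketotifen, against 21.96 and 20.7 FPKM with PBS.

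Partners of the MAGE proteins were expressed at high levels. TRIM28, the ligase bound by MAGEA3 and MAGEA6 and also a corepressor, had 192 and 194 FPKM in the ketotifen libraries, against 176 and 160 FPKM in the PBS libraries. Its log2 difference was 0.20 ± 0.06 (limma adjusted p = 0.148, voom adjusted p = 0.020). DDB1, an adaptor of CUL4 ligases, had 119 and 122.5 FPKM with ketotifen, against 122 and 119 FPKM with PBS. HUWE1, the ligase bound by MAGEA11, had 39.0 and 39.3 FPKM with ketotifen, against 42.6 and 44.4 FPKM with PBS (log2 difference -0.15 ± 0.05, limma adjusted p = 0.192, voom adjusted p = 0.0485).

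Of 35 ligase partners and substrates 32 had a row and 29 were tested, with a median log2 difference of -0.09. By limma 0 passed, with 5 at an unadjusted p under 0.05, a threshold that 20.4% of all tested genes met. By voom 2 were higher, TRIM28 and RBX1, and 3 were lower, HUWE1, PRKAA1 and EP300, where 3.35% and 3.56% of all tested genes were called higher and lower. RBX1, PRKAA1 and EP300 were named after their values were seen. RBX1, the RING subunit of cullin ligases, had 35.8 and 34.96 FPKM with ketotifen, against 30.4 and 25.4 FPKM with PBS. PRKAA1, a catalytic subunit of AMP-activated kinase and a known substrate of the MAGEA3 and TRIM28 ligase, had 8.98 and 8.69 FPKM with ketotifen, against 10.03 and 10.9 FPKM with PBS (log2 difference -0.22 ± 0.07, limma adjusted p = 0.153, voom adjusted p = 0.0409).

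A list of genes of DNA methylation, demethylation and chromatin silencing, with transcription factors such as SP1, was nearly all expressed, with 45 of 47 in the table and 44 tested. DNMT1, which copies methylation after replication, averaged 69.3 ± 0.244 FPKM with ketotifen and 69.7 ± 0.686 FPKM with PBS. DNMT3B, which sets new methylation, averaged 29.8 ± 0.865 FPKM with ketotifen and 33.2 ± 1.70 FPKM with PBS (limma adjusted p = 0.215, voom adjusted p = 0.103). HDAC1, a histone deacetylase, averaged 84.9 ± 2.90 FPKM with ketotifen and 80.2 ± 0.0648 FPKM with PBS. The median log2 difference of the list was -0.05.

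By limma 0 of the 44 passed, with 10 at an unadjusted p under 0.05, which 20.4% of all tested genes met. By voom 2 were higher, TRIM28 and CBX3, and 5 were lower, CBX5, TET1, TET2, SP1 and MGA, where 3.35% of all tested genes were called higher and 3.56% lower. CBX3 and CBX5 encode heterochromatin proteins that bind methylated histone H3, and they moved in opposite directions by voom. CBX3 averaged 86.9 ± 3.68 FPKM with ketotifen and 75.1 ± 2.66 FPKM with PBS (voom adjusted p = 0.0246, limma adjusted p = 0.131). CBX5 averaged 24.8 ± 0.411 FPKM with ketotifen and 29.4 ± 0.107 FPKM with PBS (voom adjusted p = 0.00641, limma adjusted p = 0.104). TET1, which oxidises methylated cytosine, averaged 2.85 ± 0.174 FPKM with ketotifen and 3.67 ± 0.0191 FPKM with PBS (voom adjusted p = 0.00608, limma adjusted p = 0.137). CBX5, TET1, TET2, SP1, MGA, DNMT1 and DNMT3B were named after their values were seen, as was CTCFL.

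**Figure D5:**
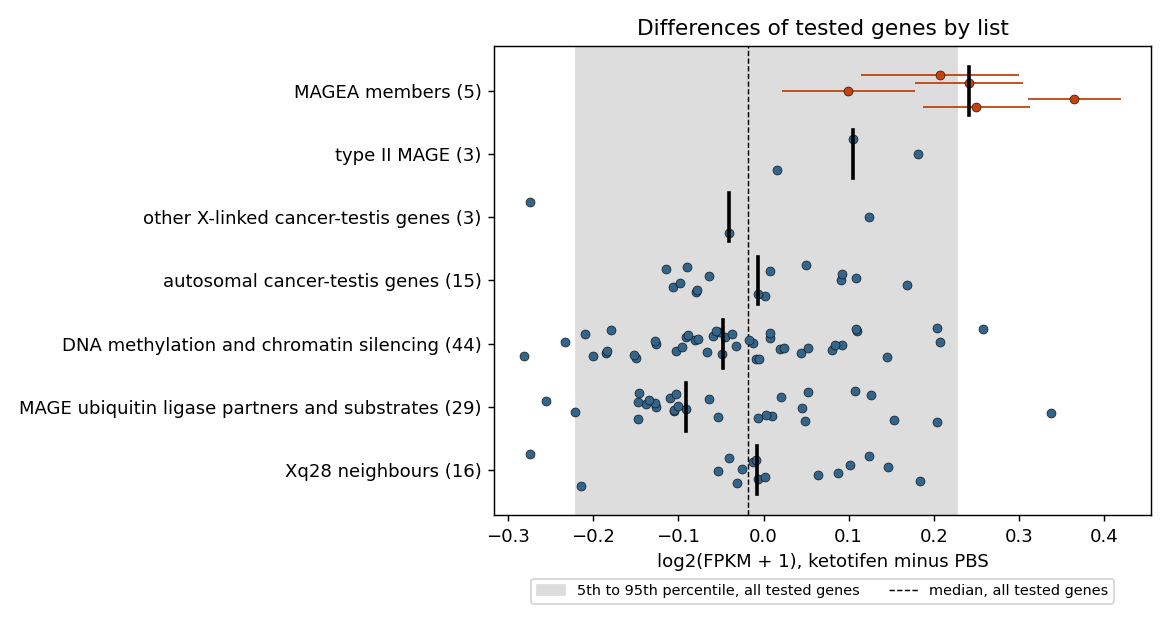
Ketotifen minus PBS difference in log2(FPKM + 1) of every tested gene of each list (number in brackets); points are genes, thick bars are list medians, error bars on the MAGEA members are limma's SE, and the grey band spans the 5th to 95th percentile of all tested genes, -0.22 to 0.23. The MAGEA members have a median of 0.24, and the medians of the other lists lie between -0.09 and 0.10.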

How the data were processed

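Gene expression was measured by sequencing polyadenylated RNA (stranded mRNA kit, paired reads of 150 bases, per the labels' protocols). Per the submitters' processing notes, fastp, HISAT2 and HTSeq were used with GRCh38. No source at hand states the annotation, the gene lengths or whether strand was used. The deposited table gives the authors' FPKM value of each gene in each library. Columns were tied to groups by name. Their letters were not matched to the labels' replicate numbers.

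FPKM values step by what 1 read is worth. Whole reads, within 0.05 reads, were recovered for all 10586 tested genes. Of 500 decoys 4 gave whole numbers, 0 of them at or under the gene's own reads. A common factor can remain in a gene's reads. Library totals came from genes with 1 GENCODE transcript (Python 3.11.15), and they show only counting precision.

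Genes whose mean reached 1 FPKM were tested two-sided by limma-trend (limma 3.58.1 under R 4.3.3) on log2(FPKM + 1), with Benjamini-Hochberg adjustment. An exact permutation test cannot go below p = 0.333 with 2 against 2 libraries. limma's voom on the recovered reads was an alternative. Both fits were run on simulated data with planted changes. Fold changes on the log2(FPKM + 1) scale understate those of low genes.

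The members and lists were chosen with earlier results of these data known. Beside the members, the rule named the 3 highest genes of each list, every gene limma called, and the 3 tested genes nearest in profile to the highest member. Sequences came from RefSeq and GENCODE v29 and were aligned with Biopython 1.88. Some genes are not reported here.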

Additional observations from a re-analysis of the deposited data

How the results depend on the processing

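The 5 members with a mean of at least 1 FPKM stayed positive under all alternatives tried, with log2 differences from 0.05 to 0.40. MAGEA4 was not kept at a mean of at least 5 FPKM. The groups of these 5 members did not overlap, so leaving out 1 library or changing the pseudocount could not turn the sign. The family was also chosen by this contrast. MAGEA10 and MAGEA11 were fitted only with no filter. The log2 ratio of the family's summed level, 0.276, ran from 0.224 to 0.295 over scalings, voom, reads and the sum without MAGEA3, and from 0.209 to 0.346 when 1 library was left out. Scaling to an equal sum moved the median of all genes to -0.063.

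Counts over all genes were less stable. Limma called 1 gene higher and 12 lower. With no filter it called 0 higher and 0 lower, with 2260 genes at an unadjusted p under 0.05. At a mean of at least 5 FPKM 15 were higher. With median ratio scaling 2 were lower, and with quantile normalization 2. Voom called 355 higher and 377 lower, and 11 of the related-list genes, of which limma called 0. When 1 library was left out, the calls ran from 3 to 1061 higher, from 7 to 875 lower and from 0 to 18 among related-list genes, the highest counts coming without PBS library A. The lone library left in a group was then assumed to vary like the other group.

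A replicate block on the column letters, chosen after seeing the data, gave 406 higher, 231 lower and 4 related-list genes. No label says that the letters pair libraries, and the A minus B differences of the groups correlated by 0.102 across genes. With 2 libraries a group, small differences cannot be told from library spread, and MAGEA10 and MAGEA11 were too low to compare.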
